A study of Mus musculus with 6 samples.

Results

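A set of 10 genes of the cadherin-catenin adhesion system was examined in the mouse colorectal cancer line SL4, namely the cadherins Cdh2, Cdh3, Cdh5, Cdh6, Cdh11 and Cdh13 and the catenins Ctnna1, Ctnnb1, Ctnnd1 and Jup. They were picked by gene symbol, with no threshold on a measured value but with earlier results of these data known. Each symbol matched 1 of the 53700 genes listed. RNA-seq had been performed on 3 libraries of control SL4 cells without SEMA6A overexpression and on 3 libraries of SL4 cells that stably overexpressed SEMA6A after lentiviral delivery (pLV-SEMA6A). The parental line is described as luciferase-expressing, and no further agent is named for either group. The overexpressing cells are described as 1 stable line, and the control is named both as pLV-Control and simply as SL4 in the study's text, so whether it carried a control lentivirus is uncertain. Whether the 3 libraries of a group came from separate cultures is not stated, so the p-values measure only the spread between these libraries, which may be technical.

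Cadherins are cell surface proteins whose extracellular repeats bind cadherins of the neighbouring cell in the presence of calcium. The tail of a classical cadherin binds β-catenin or its close relative plakoglobin (γ-catenin), and these recruit α-catenin, which couples the complex to actin, while p120-catenin binds nearer the membrane and keeps the cadherin at the surface. β-catenin also acts outside junctions as the transcriptional coactivator of Wnt signalling, which is frequently activated in colorectal cancer. Tumours of epithelial origin often lose E-cadherin (Cdh1) and express N-cadherin (Cdh2) or another mesenchymal cadherin, a pattern known as the cadherin switch.

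Promoter windows of 2 catenin genes are shown because β-catenin and plakoglobin compete for the same cadherin tail and differed most in RNA level among the catenins. Both windows are the 250 bases before a RefSeq transcription start (RefSeq, GRCm38.p6), written 5′ to 3′ on the gene's own strand, with each CG dinucleotide in capitals. The Ctnnb1 window lies at chr9:120933150-120933399 on the plus strand, inside an intron of 1 annotated Ctnnb1 transcript, and the Jup window lies at chr11:100397791-100398040 on the minus strand, where GENCODE M21 annotates no transcript.
Ctnnb1: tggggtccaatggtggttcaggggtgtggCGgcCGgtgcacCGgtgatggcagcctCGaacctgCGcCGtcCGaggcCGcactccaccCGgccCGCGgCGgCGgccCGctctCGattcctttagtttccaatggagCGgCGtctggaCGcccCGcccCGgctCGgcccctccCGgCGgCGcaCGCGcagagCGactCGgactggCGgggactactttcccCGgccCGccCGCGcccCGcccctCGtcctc
Jup: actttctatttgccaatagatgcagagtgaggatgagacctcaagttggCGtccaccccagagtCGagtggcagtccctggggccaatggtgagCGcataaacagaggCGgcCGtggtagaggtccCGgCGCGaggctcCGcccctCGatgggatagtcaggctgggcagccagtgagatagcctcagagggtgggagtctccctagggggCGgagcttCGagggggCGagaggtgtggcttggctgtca
The printed Ctnnb1 window held 35 CG dinucleotides, and 97.0% of the 32851 windows of this length in the table held fewer. A second Ctnnb1 start has a window at 120933328 to 120933577 with 43 (99.3% of windows holding fewer). The Jup window held 13, with 68.5% of windows holding fewer, against a median of 6 over all windows. Of the other members, Ctnnd1 had a window of 26 CG dinucleotides (90.4% of windows holding fewer) and a second of 3 (29.0%), the Cdh6 window held 6, and windows were matched for 4 of the 10 members. Neither printed window contained CAGGTG (an E-box that SNAIL and ZEB factors recognise, present on either strand in 17.2% of windows), CTTTGA (a core of TCF/LEF sites, 13.8% of windows) or TATAAA (12.4% of windows), while the second window of Ctnnb1 and that of Ctnnd1 each held 1 TATAAA. Annotated exon of protein-coding Ctnnb1 transcripts covers 178 of the 250 bases of the second Ctnnb1 window, including its TATAAA. A match or its absence describes only the letters of these windows.

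Expression was given in TPM, a measure of transcript abundance that is divided by transcript length and brought to 1 total per library, and so allows genes to be set side by side within a library. TPM keep no record of read depth, and the depth behind each value is therefore unknown. The libraries summed to between 977400 and 986444 TPM over the listed genes, and the number of genes above 0 was 19340 to 19463 in control and 18798 to 18887 in pLV-SEMA6A cells. Sema6a itself had no TPM in any control library and reached 98.68, 118.42 and 112.22 TPM with the lentivirus. The mitochondrial gene mt-Co3 had 0.33 TPM in 1 of the overexpressing libraries and 140.6 to 450.09 TPM in the other libraries. Whether a value of 0 may also be a failed estimate was not tested. Cdh1 measured 0.03, 0 and 0 TPM in control cells and 0.03, 0 and 0.01 TPM in overexpressing cells. The label of a colorectal line was set against 14 epithelial marker genes. All 14 were below 1 TPM in every library, with summed levels of 0.61 to 0.99 TPM in control and 0.43 to 0.74 TPM in pLV-SEMA6A cells, and Epcam, Cdx1 and Cdx2 were at 0 throughout. Krt8, the highest of the 14, measured 0.10 to 0.38 TPM in control and 0.21 to 0.39 TPM in pLV-SEMA6A cells.

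The members fell into an abundant and a scarcely detected set. Ctnnb1, Ctnna1, Ctnnd1, Cdh2 and Cdh13, in this order of TPM, were between 8.97 and 280.73 TPM in every library, whereas Jup, Cdh11, Cdh6, Cdh3 and Cdh5 were below 1 TPM in every library. Neighbours in this order did not overlap within either group, with 2 exceptions. Jup and Cdh11 overlapped in the control group but not in the pLV-SEMA6A group, and Cdh6 and Cdh3 overlapped in both.

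**Figure D1:**
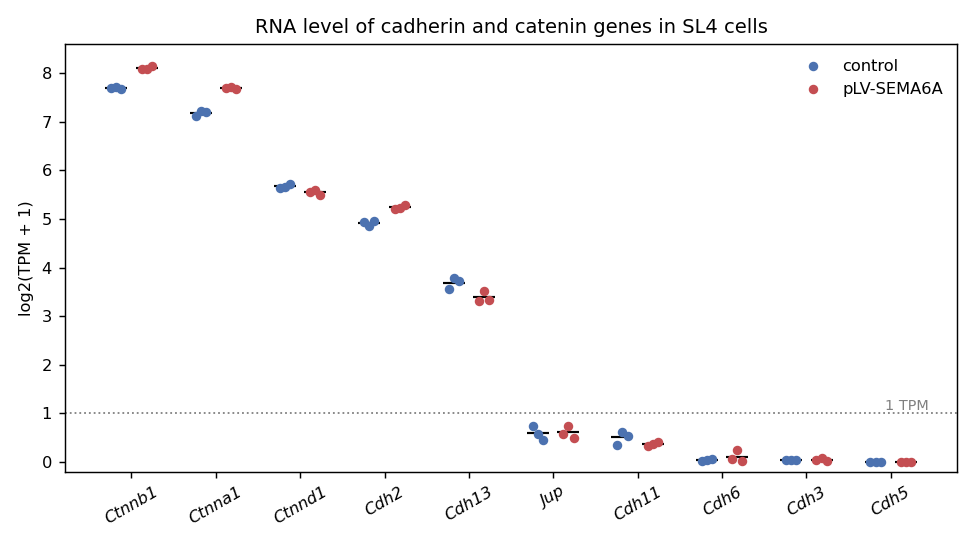
RNA level of each member, as log2(TPM + 1), in the 3 control (blue) and 3 pLV-SEMA6A (red) libraries. Each point is 1 library, the black bar is the group mean on this scale and the dotted line marks 1 TPM. Ctnnb1, Ctnna1 and Cdh2 sit higher in each pLV-SEMA6A library than in any control library, Cdh13 and Ctnnd1 sit lower, and the 5 genes on the right lie below 1 TPM.

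The comparison asked which of these adhesion genes differed when SEMA6A, a transmembrane semaphorin, was overexpressed. Genes whose TPM averaged 1 or more over the 6 libraries were tested with limma on log2(TPM + 1), and all fold changes below are on that scale, pLV-SEMA6A against control. The filter left 12510 genes, among them 5 of the 10 members. A gene was said to rise or fall at a Benjamini-Hochberg adjusted p under 0.05, and was called a differentially expressed gene (DEG) if its log2 fold change also exceeded 0.5 in size. Ctnnb1, Ctnna1 and Cdh2 rose, Cdh13 fell and Ctnnd1 did not pass. These 4 of 5 tested members are read against 47.6% of all tested genes that passed in either direction, 19.5% higher and 28.2% lower. One member, Ctnna1, was a DEG, against 15.9% of all tested genes in either direction and 5.12% that were DEGs with a rise. The median log2 fold change was 0.32 over the tested members and -0.064 over all tested genes. The groups did not overlap for any of the 5 tested members, which also held for 58.5% of all tested genes. With 3 libraries against 3, a two-sided exact permutation test cannot give less than p = 0.1, and each of the 5 members reached that value. After median centring of each library, Ctnnb1, Ctnna1 and Cdh2 still rose and none of the members fell, against 26.9% of all tested genes higher and 19.8% lower. Centring moved the median of all tested genes by 0.093 and turned the split of DEGs from 640 higher and 1347 lower to 1002 higher and 961 lower. In bulk RNA, fewer cells expressing a gene and less RNA per cell cannot be told apart.

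**Figure D2:**
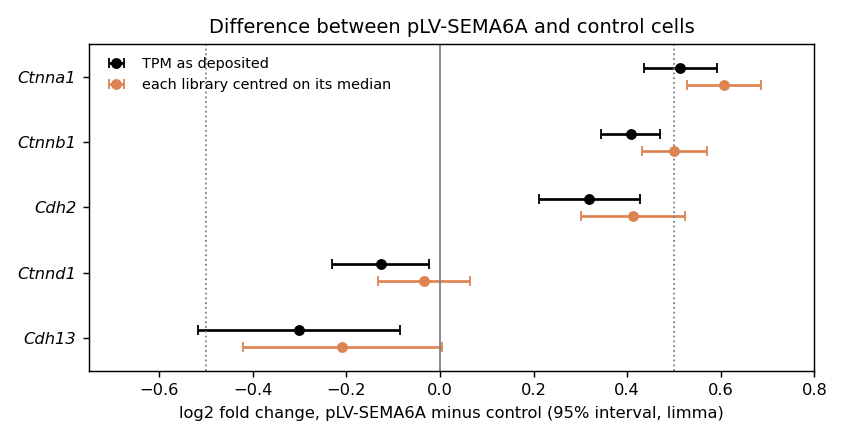
Log2 fold change (pLV-SEMA6A minus control, log2(TPM + 1) scale, horizontal axis) of the 5 tested members, with the 95% interval from limma, for TPM as deposited (black) and after median centring of each library (orange). The dotted lines mark the DEG limits of -0.5 and 0.5. Ctnna1, Ctnnb1 and Cdh2 lie above 0 under both scalings, while the interval of Cdh13 reaches 0.0046 and that of Ctnnd1 spans 0 after centring.

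Among the cadherin members, Cdh2 was the most abundant, and of the 2 that were tested it rose and Cdh13 fell. Cdh2 encodes N-cadherin, the classical cadherin of neural and mesenchymal cells (GRCm38 chromosome 18, 16588877 to 16809246, minus strand). Its TPM were 29.61, 28.01 and 30.14 in control and 35.81, 36.44 and 37.95 in pLV-SEMA6A cells. The lowest pLV-SEMA6A library thus lay above the highest control library, and the group means of 29.3 ± 1.11 and 36.7 ± 1.10 TPM (SD, n = 3 each) differed by a rise of 25.6%. The log2 fold change was 0.32 (SE 0.045, 95% interval 0.21 to 0.43, adjusted p = 0.00164). In rank, 33.8% of the tested genes were at or above the level of Cdh2.

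Cdh13 encodes T-cadherin, an unusual cadherin that is attached to the membrane by a lipid anchor, lacks the catenin-binding tail and serves as a receptor for adiponectin (GRCm38 chromosome 8, 118283733 to 119324921, plus strand). Its TPM were 10.74, 12.77 and 12.28 in control and 8.97, 10.43 and 9.06 in pLV-SEMA6A cells. Each pLV-SEMA6A library lay below each control library, with a gap of only 10.43 against 10.74 TPM at the nearest pair. The mean was 11.9 ± 1.06 TPM in control and 9.49 ± 0.82 TPM in pLV-SEMA6A cells (SD, n = 3 each), and the log2 fold change was -0.30 (SE 0.090, 95% interval -0.52 to -0.086, adjusted p = 0.0317). The call was lost after median centring of each library (log2 fold change -0.21, adjusted p = 0.0981) and without the filter on low values (adjusted p = 0.0744). It was also lost without control replicate 2 (adjusted p = 0.0968), control replicate 3 (0.0909), SEMA6A replicate 1 (0.0911) or SEMA6A replicate 3 (0.0903).

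The remaining 4 cadherins were at the bottom of the range and were not tested. Cdh11 encodes OB-cadherin of osteoblasts and fibroblasts and measured 0.28, 0.53 and 0.46 TPM in control and 0.26, 0.29 and 0.34 TPM in pLV-SEMA6A cells, with overlapping groups. Cdh6, a cadherin of the kidney and the neural crest, measured 0.01 to 0.04 TPM in control and 0.04, 0.18 and 0.02 TPM in pLV-SEMA6A cells. Cdh3, which encodes P-cadherin of epithelia and lies 46.1 kb upstream of Cdh1 on chromosome 8, stayed at 0.03 TPM in each control library and measured 0.03, 0.06 and 0.01 TPM in pLV-SEMA6A cells. Cdh5, the VE-cadherin of endothelial junctions, was listed at 0 in all 6 libraries. Exact permutation tests (two-sided) gave p = 0.3 for Cdh11, 0.5 for Cdh6 and 1 for Cdh3. A limma fit without the filter, over 24518 genes above 0 in at least 1 library, gave adjusted p = 0.372, 0.509 and 0.934 for Cdh11, Cdh6 and Cdh3. No difference between the groups was detected for these 3 genes.

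Ctnnb1 was the most abundant member, with 4.52% of the tested genes at or above its level. It encodes β-catenin, the bridge from the cadherin tail to α-catenin and the coactivator of TCF/LEF factors (GRCm38 chromosome 9, 120929216 to 120960507, plus strand). Its TPM were 205.26, 209.41 and 203.31 in control and 268.87, 271.19 and 280.73 in pLV-SEMA6A cells. All pLV-SEMA6A libraries exceeded all control libraries by far more than the spread within a group. The mean was 206 ± 3.12 TPM in control and 274 ± 6.29 TPM in pLV-SEMA6A cells (SD, n = 3 each), a rise of 32.8%, and the log2 fold change was 0.41 (SE 0.026, 95% interval 0.34 to 0.47, adjusted p = 6.3e-05). Of the 31-base stretches of its annotated transcripts, 13.2% were shared with Ulk4, a kinase gene that overlaps it on the opposite strand. Whether strand was used in the quantification is not stated. Ulk4 was at 1.00 to 3.37 TPM over the libraries (log2 fold change -0.54, adjusted p = 0.10, not passed), and the part of shared reads in the value of Ctnnb1 was not tested.

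Ctnna1 encodes αE-catenin, the actin-binding partner of β-catenin (GRCm38 chromosome 18, 35118859 to 35254779, plus strand). Its TPM were 138.37, 147.58 and 147.10 in control and 205.59, 208.95 and 204.67 in pLV-SEMA6A cells. The groups were separated by a wide gap, and the means of 144 ± 5.18 and 206 ± 2.25 TPM (SD, n = 3 each) differed by 43.0%. The log2 fold change of 0.51 (SE 0.032, 95% interval 0.44 to 0.59, adjusted p = 5.8e-05) was just past the DEG limit of 0.5, and the interval included that limit. Without control replicate 1 it was 0.48, still a rise but no longer a DEG. Ctnna1 lies on the chromosome that also carries Sema6a and Cdh2. Over the 30 other tested genes within 1 Mb of Ctnna1 the median log2 fold change was -0.039, with 5 genes higher and 12 lower, and over the 339 tested genes of chromosome 18 it was -0.056. Around Ctnnb1, the 14 tested neighbours had a median of 0.036, with 3 higher and 2 lower. The shares of all tested genes were 19.5% higher and 28.2% lower. Sema6a, at 47235598 to 47368870 on chromosome 18, lies outside the 1 Mb window around Ctnna1. Any part of chromosomal position in these differences was not tested.

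Ctnnd1 encodes p120-catenin, the stabiliser of cadherins at the membrane (GRCm38 chromosome 2, 84600071 to 84650765, minus strand). Its TPM were 48.84, 49.74 and 51.78 in control and 46.08, 47.49 and 43.91 in pLV-SEMA6A cells. The groups did not overlap, but the means of 50.1 ± 1.51 and 45.8 ± 1.80 TPM (SD, n = 3 each) gave a log2 fold change of -0.13 (SE 0.043, 95% interval -0.23 to -0.023) at an adjusted p of 0.0505, which missed the threshold. Without SEMA6A replicate 2 the adjusted p was 0.0461, and after centring the log2 fold change was -0.034. The level of Ctnnd1 itself carries a doubt, since other annotated genes held 58.6% of the 31-base stretches found in its transcripts, chiefly the overlapping same-strand locus Gm28635. Gm28635 had no TPM in the control libraries and 0.19, 1.01 and 0 TPM in pLV-SEMA6A cells.

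Jup encodes plakoglobin, which takes part in both adherens junctions and desmosomes and can replace β-catenin on the cadherin tail (GRCm38 chromosome 11, 100368958 to 100397763, minus strand). Its TPM were 0.68, 0.49 and 0.37 in control and 0.50, 0.68 and 0.41 in pLV-SEMA6A cells, so the groups overlapped almost entirely. The mean was 0.51 ± 0.16 TPM in control and 0.53 ± 0.14 TPM in pLV-SEMA6A cells (SD, n = 3 each; two-sided exact permutation test, p = 0.8). The fit without the filter gave a log2 fold change of 0.017 (95% interval -0.26 to 0.29, adjusted p = 0.933). The ratio of Ctnnb1 to Jup was 426 ± 124 in control and 540 ± 143 in pLV-SEMA6A cells (SD, n = 3 each), with overlapping libraries.

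The composition of the system was described from the same TPM, with no test, since the members' differences fix its direction. The summed TPM of the 6 cadherins and Cdh1 was 41.7 ± 1.16 in control and 46.6 ± 1.30 in pLV-SEMA6A cells, and that of the 4 catenins was 401 ± 7.17 and 526 ± 4.66 (SD, n = 3 each). Cdh2 supplied 70.2% ± 2.52 of the cadherin sum in control (67.7% to 72.8% over libraries) and 78.8% ± 1.68 in pLV-SEMA6A cells (76.9% to 80.1%). The share of Cdh13 was 28.6% ± 2.24 and 20.3% ± 1.5, and the ratio of Cdh2 to Cdh13 was 2.47 ± 0.28 in control and 3.89 ± 0.36 in pLV-SEMA6A cells. Cdh1, Cdh3, Cdh5, Cdh6 and Cdh11 together supplied 1.17% of this sum in control and 0.906% in pLV-SEMA6A cells. The sum leaves out the rest of the cadherin family. A list of 16 other classical and related cadherins, Cdh1 among them, summed to 4.39 to 4.70 TPM in control. In pLV-SEMA6A cells that list summed to 3.30 to 4.01 TPM. Within the catenins, Ctnnb1 held a share of 51.4% ± 0.85 in control and 52.0% ± 0.89 in pLV-SEMA6A cells, with overlapping libraries, whereas Ctnna1 was at 36.0% ± 0.71 and 39.2% ± 0.50 and Ctnnd1 at 12.5% ± 0.33 and 8.71% ± 0.37. Ctnnb1 per Cdh2 overlapped between the groups (6.75 to 7.48 and 7.40 to 7.51), and Ctnnd1 per Cdh2 was 1.71 ± 0.063 in control and 1.25 ± 0.080 in pLV-SEMA6A cells. Catenin TPM per cadherin TPM was 9.63 ± 0.24 and 11.3 ± 0.22. This ratio counts Cdh13, which lacks the catenin-binding tail, among the cadherins, and Ctnnd1, whose level carries a doubt, among the catenins.

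**Figure D3:**
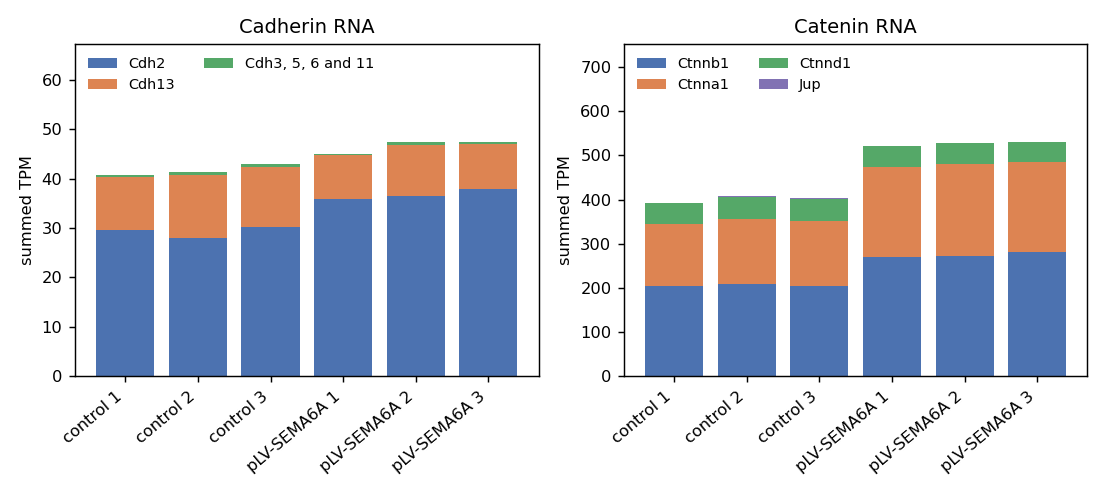
Summed TPM (vertical axes, starting at 0) of the cadherin members (left) and catenin members (right) in each of the 6 libraries, with each gene as a segment. The Cdh2 segment is larger and the Cdh13 segment smaller in each pLV-SEMA6A library, and the catenin bars stand at 393.15 to 407.22 TPM in control and 521.04 to 529.72 TPM in pLV-SEMA6A cells. Jup and the cadherins other than Cdh2 and Cdh13 are barely visible.

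Most listed genes of the wider cadherin family were below 1 TPM in all libraries. Of 16 other classical and related cadherins, 14 were below 1 TPM in all libraries and 8 of these were listed at 0 throughout. Cdh24, a type II classical cadherin, was the single tested gene and did not pass (log2 fold change -0.012, adjusted p = 0.944, 0.082 after centring). Cdh22, named after its values were seen, measured 1.19, 1.16 and 1.08 TPM in control and 0.21, 0.30 and 0.27 TPM in pLV-SEMA6A cells. It was below the filter, and the fit without the filter gave a log2 fold change of -0.77 (adjusted p = 0.00132). Of 18 large and atypical cadherins 2 were tested and 1 passed, against 47.6% of all tested genes (19.5% higher, 28.2% lower). The gene that passed was Clstn1, a calsyntenin, at 67.5 ± 0.80 TPM in control and 75.8 ± 2.48 TPM in pLV-SEMA6A cells (log2 fold change 0.17, adjusted p = 0.00823).

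Protocadherins lack the catenin-binding tail and mediate weaker adhesion, chiefly in the nervous system. Of 12 non-clustered protocadherins, 4 were tested, 2 fell and none rose, and the median log2 fold change was -0.34. Over all tested genes, 28.2% fell and 19.5% rose. Pcdh9 fell from 6.16, 5.52 and 6.03 TPM in control to 2.96, 3.24 and 3.94 TPM in pLV-SEMA6A cells (log2 fold change -0.66, adjusted p = 0.00335), without overlap. Pcdh18, named after its values were seen, fell by 0.48 on the log2 scale (adjusted p = 0.0354), a call that was lost after centring (adjusted p = 0.0682), without the filter (0.0998), and without control replicate 1 (0.104), control replicate 2 (0.0953), SEMA6A replicate 1 (0.0831) or SEMA6A replicate 3 (0.0918). Pcdh19, the most abundant, was at 13.6 ± 0.51 and 12.9 ± 0.19 TPM (SD, n = 3 each) and did not pass (log2 fold change -0.071, adjusted p = 0.297; 0.022 after centring).

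Among 5 matched relatives of the catenins, 2 were tested. Pkp4, an armadillo protein related to p120-catenin, was at 33.1 ± 2.27 and 34.5 ± 0.11 TPM and did not pass (adjusted p = 0.389). Ctnnal1, an α-catenin-like protein named after its values were seen, rose from 9.04 ± 2.03 to 12.9 ± 1.09 TPM (SD, n = 3 each; log2 fold change 0.49, adjusted p = 0.0327). That call was lost without the filter (adjusted p = 0.0791) and without control replicate 1 (0.0862), control replicate 2 (0.0943), SEMA6A replicate 1 (0.0790) or SEMA6A replicate 3 (0.0969). Of 15 desmosomal genes, which encode the other type of cadherin junction, 13 were below 1 TPM in all libraries. The single one tested was Pkp2, a plakophilin, which rose from 11.6 ± 0.90 to 14.8 ± 1.10 TPM (SD, n = 3 each; log2 fold change 0.32, adjusted p = 0.0158). Without control replicate 3, SEMA6A replicate 2 or SEMA6A replicate 3 the adjusted p of Pkp2 was 0.0510, 0.0510 and 0.0516.

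Of 20 partners of the adherens junction, 18 were tested, 5 rose, 4 fell and 9 did not pass, with a median log2 fold change of -0.057. These counts are near the share of all tested genes that passed in either direction, 47.6% (19.5% higher, 28.2% lower). After centring, 6 were higher and 3 lower, against 26.9% of all tested genes higher and 19.8% lower. Actn1, the actin cross-linker α-actinin-1, measured 133.44, 126.69 and 131.22 TPM in control and 216.12, 221.03 and 201.12 TPM in pLV-SEMA6A cells (log2 fold change 0.70, adjusted p = 5.0e-05), with no overlap between the groups. Its relative Actn4 rose from 201 ± 4.88 to 275 ± 2.74 TPM (log2 fold change 0.45, adjusted p = 4.3e-05). Ssx2ip, an α-actinin-binding junction protein, rose from 17.2 ± 0.91 to 26.1 ± 1.30 TPM (log2 fold change 0.58, adjusted p = 4.4e-04). Vcl, which encodes vinculin, the actin linker that binds stretched α-catenin, measured 78.72, 78.53 and 81.01 TPM in control and 99.42, 100.07 and 94.60 TPM in pLV-SEMA6A cells (log2 fold change 0.30, adjusted p = 6.2e-04). Nectin3, an immunoglobulin-like adhesion molecule, rose by 0.23 on the log2 scale (adjusted p = 0.00636). The 4 that fell were Vezt (vezatin, a transmembrane junction protein; -0.48, adjusted p = 7.2e-04), Nectin2 (-0.32, adjusted p = 6.2e-04), Lima1 (an actin-bundling protein that binds α-catenin; -0.29, adjusted p = 0.00923) and Tjp1 (the scaffold ZO-1; -0.16, adjusted p = 0.0118, and 0.169 after centring). Vcl, Nectin3 and the 4 that fell were named after their values were seen.

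Of 24 genes of cadherin processing and turnover, 22 were tested, 5 rose, 6 fell and 11 did not pass (median log2 fold change -0.11), and after centring 6 were higher and 3 lower. Such counts are near the shares of all tested genes, 19.5% higher and 28.2% lower (26.9% and 19.8% after centring). The DEGs were Rab11a, a GTPase of recycling endosomes, from 163 ± 15.4 to 109 ± 6.96 TPM (log2 fold change -0.57, adjusted p = 0.00134), and Ptpn14, a tyrosine phosphatase, from 19.6 ± 0.17 to 13.2 ± 0.65 TPM (log2 fold change -0.54, adjusted p = 3.4e-04). Named after their values were seen, Adam10, a protease that sheds cadherin ectodomains, rose by 0.20 on the log2 scale (adjusted p = 0.00445), and Ncstn, the nicastrin subunit of γ-secretase, fell by 0.45 (adjusted p = 2.1e-04). Furin, the convertase that removes cadherin propeptides, rose by 0.26 (adjusted p = 0.00939) and Fer, a kinase that binds p120-catenin, by 0.34 (adjusted p = 0.00342), both also named after their values were seen.

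Of 22 genes of the β-catenin destruction complex and of its nuclear partners, 20 were tested, 2 rose, 5 fell and 13 did not pass (median log2 fold change -0.13), and after centring 3 were higher and 2 lower. The shares of all tested genes were 19.5% higher and 28.2% lower (26.9% and 19.8% after centring). Amer1, a membrane protein that binds APC and β-catenin, was the only DEG, at 4.06, 4.16 and 4.32 TPM in control and 1.71, 2.02 and 1.69 TPM in pLV-SEMA6A cells (log2 fold change -0.89, adjusted p = 8.3e-04). The genes that rose were Csnk1a1 and Gsk3b, which encode kinases that phosphorylate β-catenin, while Gsk3a, the paralogue of Gsk3b, fell (log2 fold change -0.13, adjusted p = 0.0270, named after its values were seen). The call of Gsk3a was lost after centring (adjusted p = 0.395), with a replicate block (0.0737), without the trend (0.0535), and without control replicate 1 (0.0818), control replicate 3 (0.0795), SEMA6A replicate 1 (0.0751) or SEMA6A replicate 3 (0.0764). Csnk1a1 rose from 245 ± 2.32 to 312 ± 7.79 TPM (log2 fold change 0.35, adjusted p = 1.0e-04), and Gsk3b, named after its values were seen, from 29.0 ± 1.13 to 34.7 ± 0.77 TPM (log2 fold change 0.25, adjusted p = 0.00407). Axin2, a transcriptional target of β-catenin named after its values were seen, was below 1 TPM in all libraries and was not tested. The TCF/LEF factor genes Tcf7 (adjusted p = 0.121), Tcf7l1 (0.437), Tcf7l2 (0.145) and Lef1 (0.169), also named after their values were seen, did not pass. The transcriptional output of β-catenin was not tested, and the level of Axin2 alone does not measure it.

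**Figure D4:**
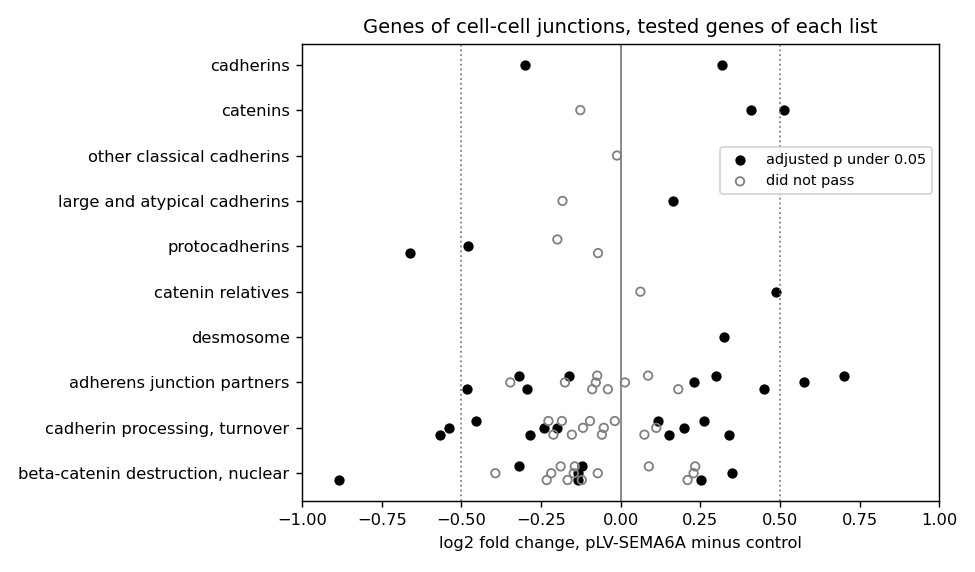
Log2 fold change (pLV-SEMA6A minus control, log2(TPM + 1) scale, horizontal axis) of every tested gene of the 2 member groups and of the 8 lists around them, 1 row per list. Filled points passed at an adjusted p under 0.05, open points did not, and the dotted lines mark -0.5 and 0.5; vertical offsets within a row carry no value. Ctnna1 and Ctnnb1 lie among the higher points and Amer1 is the lowest.

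Markers of other cell types were read beside these results. The 12 endothelial markers summed to 1.44 to 2.68 TPM in control and 2.17 to 2.75 TPM in pLV-SEMA6A cells, with Tie1, Cldn5, Emcn and Erg at 0, and the 11 leukocyte markers to 1.15 to 2.53 and 0.91 to 1.80 TPM. The highest of each, Egfl7 (log2 fold change 0.24, adjusted p = 0.458) and Cd68 (-0.18, adjusted p = 0.574), did not pass. The 11 fibroblast markers summed to 251 to 269 TPM in control and 340 to 356 TPM in pLV-SEMA6A cells. Most of both sums came from Col3a1 (mean 119 TPM in control and 172 TPM in pLV-SEMA6A cells) and Pdpn (124 and 161 TPM). Of the 11 markers, 5 averaged under 1 TPM. The other 6 were tested, and 3 rose and 2 fell, against 19.5% of all tested genes higher and 28.2% lower. Col1a1 (log2 fold change 1.02, from 1.27 to 3.60 TPM), Col3a1 (0.53) and Pdpn (0.38, named after its values were seen) rose. The platelet-derived growth factor receptor genes Pdgfra (-0.63, from 1.76 to 0.78 TPM) and Pdgfrb (-0.59, from 10.5 to 6.66 TPM) fell. The call of Pdgfra was lost with a replicate block (adjusted p = 0.0681) and without control replicate 2 (adjusted p = 0.0731), SEMA6A replicate 2 (0.0596) or SEMA6A replicate 3 (0.0511). The part of these markers in the rise of Cdh2 was not tested.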

How the data were processed

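Poly-A selected RNA of SL4 cells had been sequenced on the Illumina platform in 6 libraries, 3 per group. The authors deposited 1 table of TPM values per gene with 2 decimals. The unit was read from the values, and mm39, RSEM, HISAT and Bowtie2 are named in the submitters' processing notes without role or version. The 2 columns of group means were not used.

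The members and gene lists were chosen with earlier results of these data known. Genes averaging 1 TPM or more were fitted with limma 3.58.1 (trend, R 4.3.3) on log2(TPM + 1), with group as the only term and Benjamini-Hochberg adjustment over 12510 genes. The pseudocount understates changes of low genes. The code was tested on simulated data. Exact permutation tests used scipy 1.17.1. Named genes were the members, Cdh1 and Sema6a, up to 4 DEGs per list with the largest changes, the most abundant gene of each list, and those marked as named after their values were seen.

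Positions are those of GENCODE M21 (GRCm38, to which 97.0% of gene IDs matched), not of mm39. Shared 31-base stretches were counted over its transcripts. Alternatives were pseudocount 0.1, no filter, median centring, a replicate block, no trend, fold limits of 0 or 1, and leaving out each library. Same-numbered libraries did not deviate together.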

Additional observations from a re-analysis of the deposited data

How the results depend on the processing

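Ctnnb1, Ctnna1 and Cdh2 kept their direction and passed under each alternative. Leaving out each library in turn gave 0.39 to 0.42 for Ctnnb1, 0.48 to 0.53 for Ctnna1, 0.29 to 0.34 for Cdh2, -0.37 to -0.25 for Cdh13 (adjusted p 0.0224 to 0.0968, passed in 2 of 6 fits) and -0.15 to -0.097 for Ctnnd1 (adjusted p 0.0461 to 0.140, passed in 1 of 6). Cdh13 was -0.30 without the filter (adjusted p = 0.0744) and -0.21 after centring (0.0981). The number of DEGs among the members was 1 in the reported fit, 2 after centring (Ctnna1 at 0.61 and Ctnnb1 at 0.50), 4 with no minimum fold change, 0 with a minimum of 1, and 0 to 1 over the fits that left out a library, with 0 without control replicate 1. Over all 12510 tested genes the number of DEGs was 1987, and 1963 after centring. It rose to 5959 with no minimum and dropped to 385 with a minimum of 1 (81 higher, 304 lower). When a library was left out it was 1900 to 1975. Over the lists around the members the number of DEGs was 6, against 15.9% of all tested genes. These lists held 1, 2, 4, 2, 1, 18, 22 and 20 tested genes, in the order described above. With no minimum the number was 32, against 47.6% of all tested genes, and with a minimum of 1 it was 0. The limit itself sets these counts. The Cdh2 share of the summed TPM of the cadherin members and Cdh1 differed by 8.55 points, and by 7.30 to 9.82 points when a library was left out. Cdh24 turned to 0.082 after centring and ranged from -0.087 to 0.030 with a library left out, being 0.025 without control replicate 2, 0.030 without SEMA6A replicate 2 and 0.022 without SEMA6A replicate 3, Pcdh19 turned to 0.022 after centring, and Egfl7 turned to -0.013 without control replicate 1, none of them past the threshold. Over 34 other named genes, 341 of 373 values under an alternative kept direction and call, 26 lost their call and 6 reversed. Cd68 had no value without control replicate 3, where it was under the filter. The cause of these shifts was not tested.

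Replicate numbers did not pair the libraries. Deviations of same-numbered libraries correlated at -0.059 on average (-0.079 to -0.023, 3 pairs). A fit that took the number as a replicate block called 1924 DEGs over all genes, and the adjusted p was 0.00160 for Ctnnb1, 0.00115 for Ctnna1, 0.00759 for Cdh2, 0.0289 for Cdh13 and 0.111 for Ctnnd1, with log2 fold changes as before. Of the other named genes, Pdgfra (0.0681) and Gsk3a (0.0737) lost their call under the block. TPM hold no read depth, so no counting interval can be given for the members under 1 TPM, and absolute amounts of RNA per cell were not measured.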
